A study of Mus musculus with 18 samples.

Results

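Notch signalling was followed through the transcripts of 10 genes in 3 sorted cell populations of the mouse mammary gland. They comprised the 4 receptor genes Notch1, Notch2, Notch3 and Notch4, the ligand genes Dll1, Jag1 and Jag2, and the target genes Hes1, Hey1 and Heyl. The members were chosen by gene symbol, and each symbol had 1 row in the deposited table, which gave 10 of 46257 gene IDs. All 10 were among the 22315 genes tested.

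Notch receptors are single-pass membrane proteins that bind Delta-like and Jagged ligands on a neighbouring cell. Binding exposes the receptor to ADAM proteases and then to gamma-secretase, which frees the intracellular domain to join the DNA-binding protein RBPJ and Mastermind coactivators in the nucleus, where Hes and Hey repressor genes are the best-known targets. In the mammary gland, Notch activity is known for its role in luminal cell fate, and basal cells are known as a source of ligand.

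RNA was sequenced from basal cells (BC), estrogen receptor negative (ER-) luminal cells (LC) and estrogen receptor positive (ER+) luminal cells, each collected from pubertal, adult and mid-pregnant mice. This made 9 groups of 2 libraries, 18 in all. Every group came from mice of the genotype ERrtTA/TetOCre/rosaYFP, whose names denote a tetracycline-controlled transactivator (rtTA), a Cre recombinase under its control and a YFP reporter at the Rosa locus. The labels do not spell out what drives the transactivator. The sources used here do not state strain, age in days, how cells were gated or whether doxycycline was given. For basal samples the cell type field says "BC luminal cells" at puberty and in pregnancy but basal cells in adults. No label says that both libraries of a group stem from different animals. The spread behind each p-value is thus the one between these samples, and it may be technical.

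Levels are scaled read counts, that is, reads per gene on a common library total of 20000000. Both libraries of a group are given. Log2 fold changes refer to the scaled read count + 1, with ± their standard error. A gene was called at an adjusted p under 0.05, 2-sided, given by limma after Benjamini-Hochberg adjustment over the 22315 genes. In bulk RNA, fewer cells of a type and less RNA per cell cannot be told apart.

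Depth, taken from the steps between low values, was 7674862 to 11292227 reads in genes at puberty, 5280331 to 6363534 in pregnancy and 2406221 to 3165238 in the 4 adult luminal libraries. Those 4 libraries also stood apart in content, with 6 genes that reached 60 or more in each of them while absent (0) from the remaining 14, and 6 genes the other way round. A batch and the adult stage cannot be told apart for them. The defining markers followed the labels over the 3 stages: 10 of 10 ER+ markers were higher and 9 of 9 ER- markers lower in ER+ than in ER- luminal cells, and 10 of 10 basal markers were higher in basal than in luminal cells. Within single stages 9 of 9 ER- markers were called lower in ER+ than in ER- cells at puberty and in adults, but 0 of 9 in pregnancy. Of the 10 ER+ markers, 9, 5 and 6 were called higher at the 3 stages. One library went partly against its label. In replicate 2 of the pregnancy ER+ group the summed ER+ markers were at 34634 and the summed ER- markers at 130491, against 86823 and 53170 in replicate 1. In the pregnancy ER- libraries the ER+ markers were at 7154 and 8108 and the ER- markers at 135665 and 56637. In the comparisons that hold it, the member calls that changed when it was left out are given below with both values.

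Notch1 and Notch2 set the ER- libraries apart from all others, and Notch3 set the basal libraries apart from the luminal ones. For these receptor genes and for Dll1, a basal ligand gene, the sequence before the transcription start is shown. The set of RefSeq windows used here, on build GRCm38.p6, covered 7 of the 10 members and lacked Hes1, Hey1 and Heyl. Each run is the 250 bases before a RefSeq start, 5′ to 3′ on the gene's strand, and capitals mark E-boxes (CANNTG). The windows are chr2:26503823-26504072 (minus strand) for Notch1, chr3:98013288-98013537 (plus strand) for Notch2, chr17:32166891-32167140 (minus strand) for Notch3 and chr17:15376933-15377182 (minus strand) for the upstream Dll1 start.
Notch1: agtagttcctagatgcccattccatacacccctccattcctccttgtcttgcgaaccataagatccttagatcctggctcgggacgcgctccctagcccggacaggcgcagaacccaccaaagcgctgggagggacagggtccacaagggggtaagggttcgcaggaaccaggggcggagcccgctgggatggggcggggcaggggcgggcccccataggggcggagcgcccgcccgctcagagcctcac
Notch2: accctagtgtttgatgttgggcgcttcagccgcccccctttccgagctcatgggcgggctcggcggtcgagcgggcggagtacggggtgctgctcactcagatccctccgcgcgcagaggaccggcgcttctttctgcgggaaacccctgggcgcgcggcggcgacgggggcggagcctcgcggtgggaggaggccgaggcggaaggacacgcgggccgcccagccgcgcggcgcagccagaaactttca
Notch3: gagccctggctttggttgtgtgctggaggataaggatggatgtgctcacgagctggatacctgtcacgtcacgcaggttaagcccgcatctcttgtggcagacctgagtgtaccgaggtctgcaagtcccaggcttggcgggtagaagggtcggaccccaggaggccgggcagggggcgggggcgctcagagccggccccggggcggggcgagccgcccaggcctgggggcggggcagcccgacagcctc
Dll1: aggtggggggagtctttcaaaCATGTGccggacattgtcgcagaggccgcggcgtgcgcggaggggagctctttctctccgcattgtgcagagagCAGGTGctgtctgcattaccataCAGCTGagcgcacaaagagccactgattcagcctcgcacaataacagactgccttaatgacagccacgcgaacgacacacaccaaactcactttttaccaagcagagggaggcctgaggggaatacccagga

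The Dll1 window held 3 E-boxes, CATGTG at -229, CAGGTG at -155 and CAGCTG at -132 from the start, and the 3 receptor windows held none. Among the windows not printed, a box was present for the receptor gene Notch4 (CATTTG at -158). The other Dll1 start (CATTTG at -220) and Jag1 (CAGCTG at -82) also had one, and Jag2 had none. Boxes thus did not divide ligand from receptor genes. Such a box, whose pattern CANNTG is met on both strands at the same place, was present in 66.2% of 32851 RefSeq windows of this length. The letters TGGGAA, the core bound by RBPJ, and TATAAA were searched on both strands and were in none of the 4 windows, against 21.6% and 12.4% of all windows. GC content was 66% for Notch1, 72% for Notch2, 68.8% for Notch3 and 56% for Dll1, where the median of all windows was 52.4%. The Notch1 start of RefSeq lies 12841 bases downstream of the outermost start in the GENCODE annotation. The Dll1 window lies in an exon of A930024N18Rik, a long non-coding RNA gene on the opposite strand that overlaps Dll1 over 1873 bases. A match or its lack describes these letters only.

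Over the 3 stages Notch1 had the highest mean of the receptor genes in ER- and Notch3 in ER+ luminal cells. Per kilobase of exon, which allows levels of different genes to be compared, Notch1 stood highest in ER- luminal cells, at a mean of 825 over the 3 stages, ahead of Notch3 at 635 and Notch2 at 532. In ER+ luminal cells Notch3 led at 624, with Notch1 at 346 and Notch2 at 271. Basal cells had the 3 receptors close together, at 326 for Notch2, 295 for Notch3 and 267 for Notch1. Notch4 was lowest of the 4 receptors in each population, at 29.4 in basal, 16.9 in ER- and 13.7 in ER+ cells.

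The 4 receptors summed to 2380, 1662 and 1986 per kilobase in the ER- luminal population at puberty, in adults and in pregnancy. The same sums were 1323, 1065 and 1378 in ER+ cells and 851, 965 and 937 in basal cells, so ER- cells held the most receptor transcript at each stage. Notch1 made up 43.9%, 36.0% and 41.9% of the receptor sum in ER- cells at the 3 stages. In adult ER- cells Notch1 and Notch3 were nearly level on this scale, at means of 598 and 588 per kilobase, which depends on the exon lengths used. Notch3 made up 49.05%, 58.45% and 43.7% of it in ER+ cells.

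**Figure D1:**
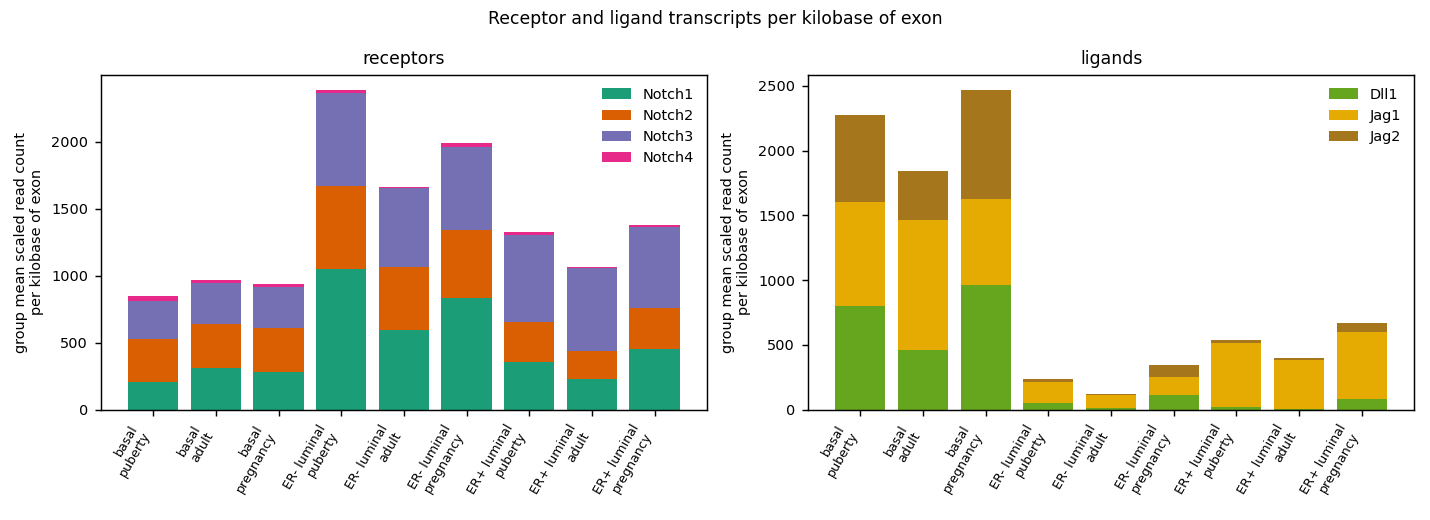
Stacked bars of group mean scaled read count per kilobase of exon for the 4 receptor genes (left) and the 3 ligand genes (right) in the 9 groups. Receptor bars are tallest in ER- luminal cells, up to 2380 at puberty, whereas ligand bars are tallest in basal cells, from 1840 to 2465, and ER+ ligand bars consist mostly of Jag1.

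Notch1 (chromosome 2, 26457903 to 26516663, minus strand, GRCm38) encodes the receptor most studied in luminal progenitors. Its scaled read counts in ER- luminal cells were 15871 and 13901 at puberty, 8718 and 8301 in adults and 10871 and 12819 in pregnancy. In ER+ cells they were 5505 and 4604, 3064 and 3440, and 4665 and 8280. In basal cells they were 2972 and 2915, 5034 and 3886, and 3883 and 4143. Every ER- library therefore lay above every ER+ and basal library. The closest approach was the pregnancy ER+ library of replicate 2, the one with raised ER- markers, at 8280 against 8301 in an adult ER- library. In the order of group means the 3 ER- groups came first and did not overlap one another, whereas pregnancy ER+, puberty ER+, adult basal and pregnancy basal overlapped each with the next.

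Notch2 (chromosome 3, 98013527 to 98150361, plus strand) encodes a receptor that luminal and basal cells share. Its counts in ER- cells were 6529 and 6848 at puberty, 4779 and 5357 in adults and 5071 and 5828 in pregnancy. In ER+ cells they were 3374 and 3127, 2149 and 2334, and 2779 and 3759. In the 6 basal libraries they kept to the narrow range of 3321 to 3669. ER- libraries were again all above the rest, and basal groups overlapped with the puberty and pregnancy ER+ groups in the order of levels.

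Notch3 (chromosome 17, 32120820 to 32166852, minus strand), a receptor also well known from vascular mural cells, did not separate the luminal populations. Its counts were 6642 and 4572, 4329 and 5182, and 4660 and 5449 in ER- cells at the 3 stages. They were 5489 and 5007, 4895 and 5172, and 5189 and 4547 in ER+ cells. In basal cells they were 1692 and 2800, 2804 and 2049, and 2292 and 2669. The 12 luminal libraries overlapped throughout and all lay above the 6 basal libraries. The summed markers of pericytes and vascular smooth muscle, the mural cells in question, went the other way, from 7161 to 13719 in basal and 440 to 4976 in luminal libraries.

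The next comparison was of the ER+ with the ER- luminal population over the 3 stages. The Hey1, Notch1 and Notch2 transcripts were lower in ER+ cells and Jag1 was higher, and 6 members were not called. That is 1 of 10 members higher and 3 lower, where 25.5% of all genes tested were called (10.3% higher and 15.2% lower). The median log2 fold change was -0.66 over the members and -0.11 over all genes tested. Without pregnancy ER+ replicate 2 the number of members called was 4 as well.

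Notch1 was 2.45-fold lower in ER+ than in ER- cells (log2 fold change -1.29 ± 0.12, adjusted p = 1.84e-06). Notch2 differed less, by -0.99 ± 0.09 (adjusted p = 9.62e-07). For Notch3 the log2 fold change was -0.01 ± 0.13 (adjusted p = 0.96), and its sign turned under several scalings. Within stages Notch1 was lower in ER+ cells by -1.56 ± 0.21 at puberty (adjusted p = 0.000127), -1.39 ± 0.21 in adults (adjusted p = 0.000368) and -0.93 ± 0.21 in pregnancy (adjusted p = 0.0336). The pregnancy value of Notch1 was -1.34 without ER+ replicate 2. Its pregnancy call was lost with edgeR, TMM factors, median-ratio factors or array weights, and without trend and robust settings. It was also lost without ER+ replicate 1, either ER- library or either basal library of that stage, where the values ran down to -0.51. Notch2 was lower by -1.04, -1.18 and -0.75 at the 3 stages (adjusted p = 0.000214, 8.7e-05 and 0.0149), and its pregnancy value was -0.97 without ER+ replicate 2. The pregnancy call of Notch2 was lost with edgeR, without trend and robust settings, without ER+ replicate 1, at -0.53, and without ER- replicate 2.

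Basal cells were compared with all luminal cells over the 3 stages. Ligand genes were higher and receptor genes mostly lower in basal cells. Of the 10 members, 5 were higher (Dll1, Jag1, Jag2, Notch4, Heyl) and 4 lower (Notch1, Notch2, Notch3, Hes1), where 42.5% of all genes tested were called (20.9% higher and 21.5% lower). The median log2 fold change was 0.66 over the members and -0.03 over all genes tested.

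Notch3 was 2.16-fold lower in basal than in luminal cells (log2 fold change -1.11 ± 0.11, adjusted p = 1.5e-06) and Notch1 1.95-fold lower (-0.97 ± 0.10, adjusted p = 2.59e-06). The Notch2 difference of -0.20 ± 0.07 (adjusted p = 0.0408) was lost in 13 of 18 fits that left out 1 library, pregnancy ER+ replicate 2 among them (-0.16). It was also lost in 8 of 15 other alternatives, edgeR (adjusted p = 0.206) and DESeq2 among them. Against ER+ cells alone, adult basal cells had more Notch2 (0.66 ± 0.15, adjusted p = 0.00304), whereas against ER- cells they had less (-0.52 ± 0.15, adjusted p = 0.0265). The second of these was lost without any 1 of the 4 libraries compared and in 6 of 13 other alternatives, edgeR and DESeq2 among them. In the first, 6 of 9 ER- markers were also called higher in basal cells (median 1.48), and their part was not tested.

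**Figure D2:**
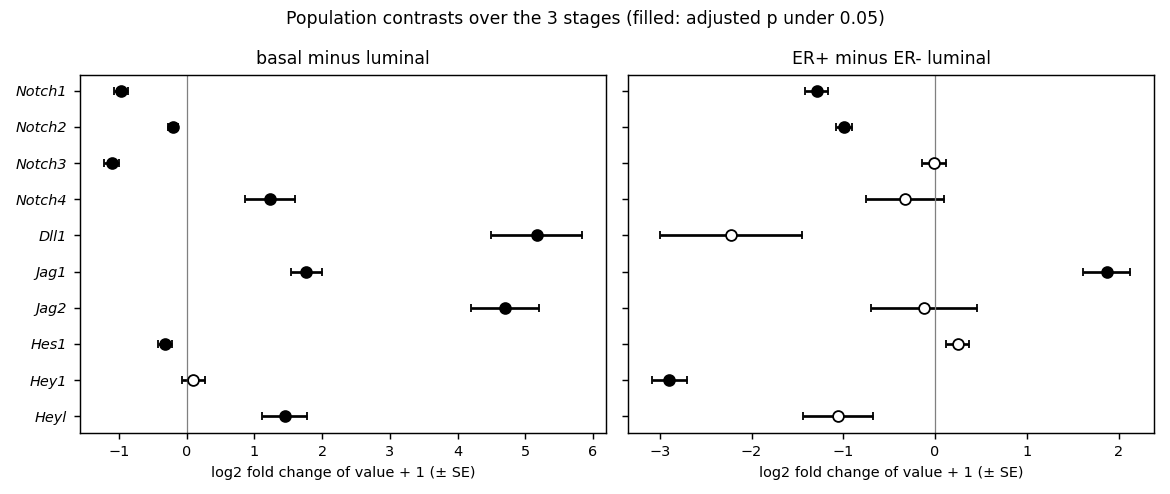
Log2 fold change of the scaled read count + 1 with its standard error for the 10 members, basal minus luminal (left) and ER+ minus ER- luminal (right), over the 3 stages. Filled points passed an adjusted p under 0.05. Dll1 (5.17) and Jag2 (4.69) lie far to the right on the left side, and Hey1 (-2.90) lies furthest left on the right side.

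Notch4 (chromosome 17, 34564268 to 34588503, plus strand), a receptor best known from endothelium, was low throughout. Its counts were 270 and 414, 186 and 188, and 198 and 166 in basal cells at the 3 stages. In ER- cells they were 275 and 64, 62 and 38, and 196 and 181, and in ER+ cells 233 and 44, 70 and 25, and 175 and 117. Replicates at puberty lay as far apart as the populations. The basal excess of 1.23 ± 0.37 (adjusted p = 0.0165) was lost without puberty basal replicate 2 (1.13, adjusted p = 0.0532) and without the adult libraries (0.83, adjusted p = 0.228).

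Endothelial markers moved with Notch4. All 11 were higher in basal than in luminal cells, and their sum ran from 5907 to 17568 in basal, 794 to 11084 in ER- and 1206 to 12770 in ER+ libraries, with Cldn5 at 0 in both adult ER+ libraries. The puberty libraries with high Notch4, ER- replicate 1 and ER+ replicate 1, had marker sums of 11084 and 12770, against 2382 and 2928 in the other replicates. Over the 18 libraries the log2 levels of Notch4 and of the marker sum had Pearson's r of 0.914 and Spearman's rho of 0.897, a description of points that share population, stage and depth. With the basal marker sum they were 0.784 and 0.692, and puberty ER- replicate 1 and ER+ replicate 1 were also high in that sum, at 13808 and 12506 against 3280 and 961 in the other replicates. The part of endothelial or basal RNA in the Notch4 values was not tested.

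Among the ligand genes, Dll1 and Jag2 marked basal cells and Jag1 was shared by basal and ER+ luminal cells. The 3 ligands summed per kilobase to 2272, 1840 and 2465 in basal cells at the 3 stages. The sums were 236, 120 and 344 in ER- cells and 537, 397 and 669 in ER+ cells. Jag1 made up 92.2%, 96.0% and 77.7% of the ligand sum in ER+ cells.

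Dll1 (chromosome 17, 15367354 to 15376872, minus strand), the Delta-like ligand whose upstream window is printed above, had counts of 3548 and 3243, 1874 and 1988, and 3979 and 4143 in basal cells at the 3 stages. ER- cells had 285 and 165, 62 and 51, and 414 and 522. ER+ cells had 174 and 8, 0 and 17, and 347 and 327. The basal libraries all lay above the luminal ones, and the luminal values, from 0 to 522, were highest in pregnancy. The log2 fold change of basal against luminal cells was 5.17 ± 0.67 (adjusted p = 0.000138), and it was 4.27 without the adult libraries. Within stages the basal excess of Dll1 was called against ER+ cells at puberty and against both luminal populations in adults. The adult call against ER- cells (5.08, adjusted p = 0.0279) was lost without either library of either group. In pregnancy the excess was called against neither population (3.59 against ER+ cells, adjusted p = 0.117). In adult ER+ cells Dll1 rested on 0 and 2 reads, against 1170 in the adult basal libraries. The ratio of these reads per depth was 239, with an exact 95% interval of 66.1 to 1979 that covers counting error only.

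Jag2 (chromosome 12, 112907819 to 112929776, minus strand), a Jagged ligand, had counts of 5033 and 4287, 3005 and 2260, and 6294 and 5428 in basal cells. ER- cells had 308 and 44, 55 and 63, and 626 and 684. ER+ cells had 260 and 24, 70 and 124, and 580 and 385. Basal and luminal libraries did not overlap, and the luminal values were highest in pregnancy. The basal excess was 4.69 ± 0.50 on the log2 scale (adjusted p = 3.02e-05). Within stages the excess of Jag2 was called against both luminal populations at puberty and in adults. In pregnancy it was called against ER+ cells and not against ER- cells.

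Basal markers in luminal libraries moved with Dll1 and Jag2. As a percentage of the basal mean of the same stage, the 10 basal markers summed to 0.32% to 4.54% in puberty and 1.5% to 3.26% in adult luminal libraries, and to 8.47% to 12.5% in pregnancy ones. At puberty Dll1 was at 0.24% to 8.39% and Jag2 at 0.52% to 6.61% of its basal mean in luminal libraries, and in adults they were at 0% to 3.21% and 2.09% to 4.71%. In the pregnancy luminal libraries Dll1 was at 8.05% to 12.85% and Jag2 at 6.57% to 11.7% of its basal mean. Over the 12 luminal libraries the log2 level of Dll1 had r of 0.82 and rho of 0.937 with the marker sum, and Jag2 0.955 and 0.916, whereas Jag1 had 0.032 and 0. These libraries share stage and depth, so the coefficients are descriptions. The part of basal RNA in the luminal values of Dll1 and Jag2 was not tested.

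**Figure D3:**
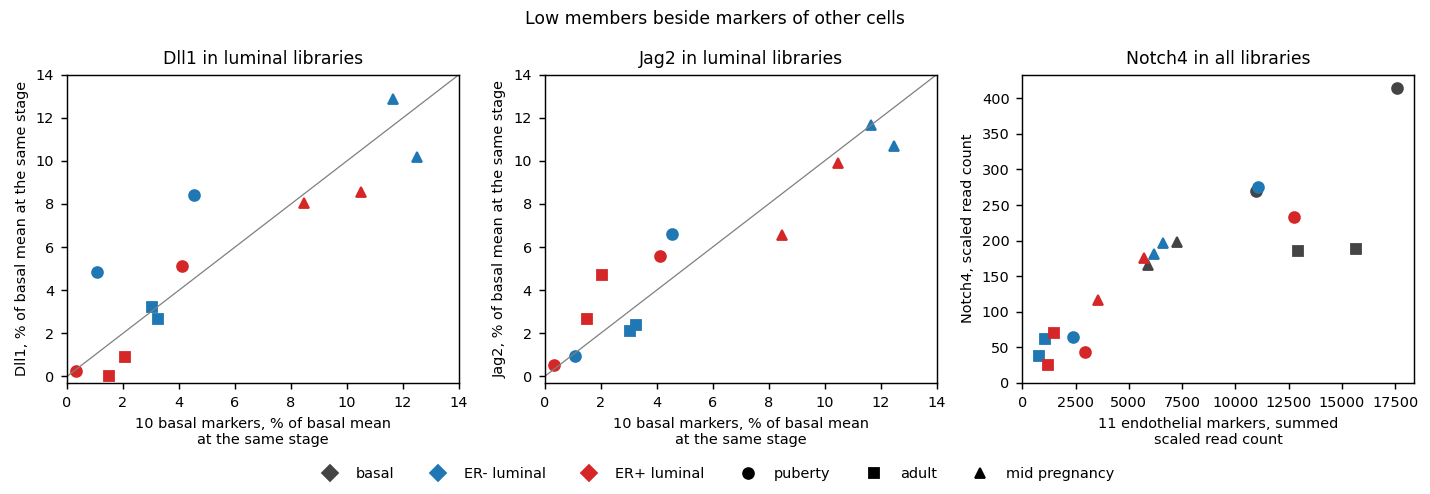
Dll1 (left) and Jag2 (centre) in the 12 luminal libraries against the 10 summed basal markers, both as a percentage of the basal mean of the same stage, with the line of equal percentages. On the right, Notch4 against the summed scaled read count of 11 endothelial markers in all 18 libraries. Colours are populations and shapes are stages. In the Dll1 and Jag2 plots 3 of the 4 pregnancy triangles lie above all other points, and that of ER+ replicate 2 (8.05% and 6.57%) lies just below puberty ER- replicate 1 (8.39% and 6.61%). Notch4 was highest (414) where the endothelial sum was highest (17568).

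Jag1 (chromosome 2, 137081456 to 137116644, minus strand), the other Jagged ligand, had counts of 4615 and 4684, 4386 and 7313, and 4094 and 3606 in basal cells. ER+ cells had 3366 and 2400, 2506 and 1939, and 3986 and 2067. ER- cells had 1382 and 458, 634 and 508, and 781 and 845. The ER- libraries were all below the others, and basal and ER+ groups overlapped in pregnancy. The log2 fold change of ER+ against ER- cells was 1.87 ± 0.26 (adjusted p = 0.000257), a 3.66-fold higher level. Basal cells exceeded all luminal cells by 1.77 ± 0.23 (adjusted p = 6.17e-05).

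Within stages the excess of Jag1 in ER+ over ER- cells was 1.84 ± 0.45 at puberty (adjusted p = 0.0193), 1.96 ± 0.45 in adults (adjusted p = 0.0123) and 1.82 ± 0.45 in pregnancy (adjusted p = 0.0753). The pregnancy value was 2.29 and called without ER+ replicate 2 (adjusted p = 0.0347). The puberty call was lost without either ER+ library or ER- replicate 2, with values down to 1.04, and the adult call without ER+ replicate 1 or ER- replicate 2. Against ER- cells, basal cells had more Jag1 at each stage, by 2.55, 3.32 and 2.24 (adjusted p = 0.00196, 0.000533 and 0.00618), and the pregnancy call was lost without basal replicate 1 (highest adjusted p 0.0574). Against ER+ cells the basal excess of Jag1 was 0.71, 1.36 and 0.42 (adjusted p = 0.316, 0.0341 and 0.631), and the pregnancy value was -0.05 without ER+ replicate 2. Its adult call was lost without basal replicate 2 or either ER+ library, with values down to 0.99.

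Hes and Hey genes, read out as targets of the pathway, did not follow 1 pattern. Per kilobase, Hes1 led the 3 in basal (537) and ER+ cells (770), where Hey1 was at 168 and 66.1. In ER- cells Hey1 was at a mean of 813 and Hes1 of 643, but the stages differed. Hey1 was at 1795, 589 and 54.2 per kilobase at puberty, in adults and in pregnancy, and Hes1 at 828, 349 and 752, so that Hey1 was the lower of the pair in pregnancy. Heyl was lowest of the 3 in each population, at 40.9, 22.3 and 12.3 in basal, ER- and ER+ cells.

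Hey1 (chromosome 3, 8663359 to 8667256, minus strand), a repressor gene and direct Notch target in many tissues, was highest in ER- luminal cells at puberty and in adults but not in pregnancy. Its counts in ER- cells were 5111 and 6613 at puberty, 1786 and 2062 in adults and 196 and 158 in pregnancy. In ER+ cells they were 515 and 334, 101 and 149, and 131 and 65. In basal cells they were 378 and 571, 958 and 793, and 320 and 269. Puberty and adult ER- libraries lay above all others, whereas the pregnancy ER- libraries lay below all 6 basal ones. In the order of group means, puberty basal overlapped with puberty ER+, and adult ER+ with pregnancy ER+.

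Pregnancy ER- cells had 32.9-fold less Hey1 than puberty ER- cells (log2 fold change -5.04 ± 0.33, adjusted p = 6.9e-07) and 10.8-fold less than adult ones (-3.44 ± 0.33, adjusted p = 1.52e-05). In ER+ cells it was lower in pregnancy than at puberty by -2.16 ± 0.33 (adjusted p = 0.000441), and by -1.66 without ER+ replicate 2. In basal cells the pregnancy value differed from the adult one by -1.57 ± 0.33 (adjusted p = 0.0113), a call lost without adult basal replicate 2 or either pregnancy basal library (highest adjusted p 0.0979). It was -0.66 ± 0.33 against puberty in basal cells (adjusted p = 0.406). Adult cells had less Hey1 than puberty cells, by -1.60 ± 0.33 in ER- (adjusted p = 0.0125) and -1.75 ± 0.33 in ER+ cells (adjusted p = 0.00449), and the calls were lost without puberty ER- replicate 2 or adult ER- replicate 1, and without puberty ER+ replicate 1.

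ER+ cells had less Hey1 than ER- cells by -3.81 ± 0.33 at puberty (adjusted p = 4.17e-06) and -3.96 ± 0.33 in adults (adjusted p = 1.87e-06). In pregnancy the value was -0.92 ± 0.33 (adjusted p = 0.196), and -0.42 (adjusted p = 0.646) without ER+ replicate 2. The difference between these contrasts was tested itself and was 2.88 ± 0.46 from puberty to pregnancy (adjusted p = 0.00413), where 2.31% of genes were called. Without ER+ replicate 2 of pregnancy it was 3.38. ER- markers moved with this difference: their median was 3.11 over 9 markers, and 1 was called. In ER+ against ER- cells, 9 of 9 of them were called lower at puberty and in adults, and 0 of 9 in pregnancy (median -0.77). Their sum in ER- cells was 202257 and 248881 at puberty and 135665 and 56637 in pregnancy, and 2 of 9 were called lower. None of the 9 was at 0 in both pregnancy ER- libraries. Their part in the Hey1 difference was not tested.

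**Figure D4:**
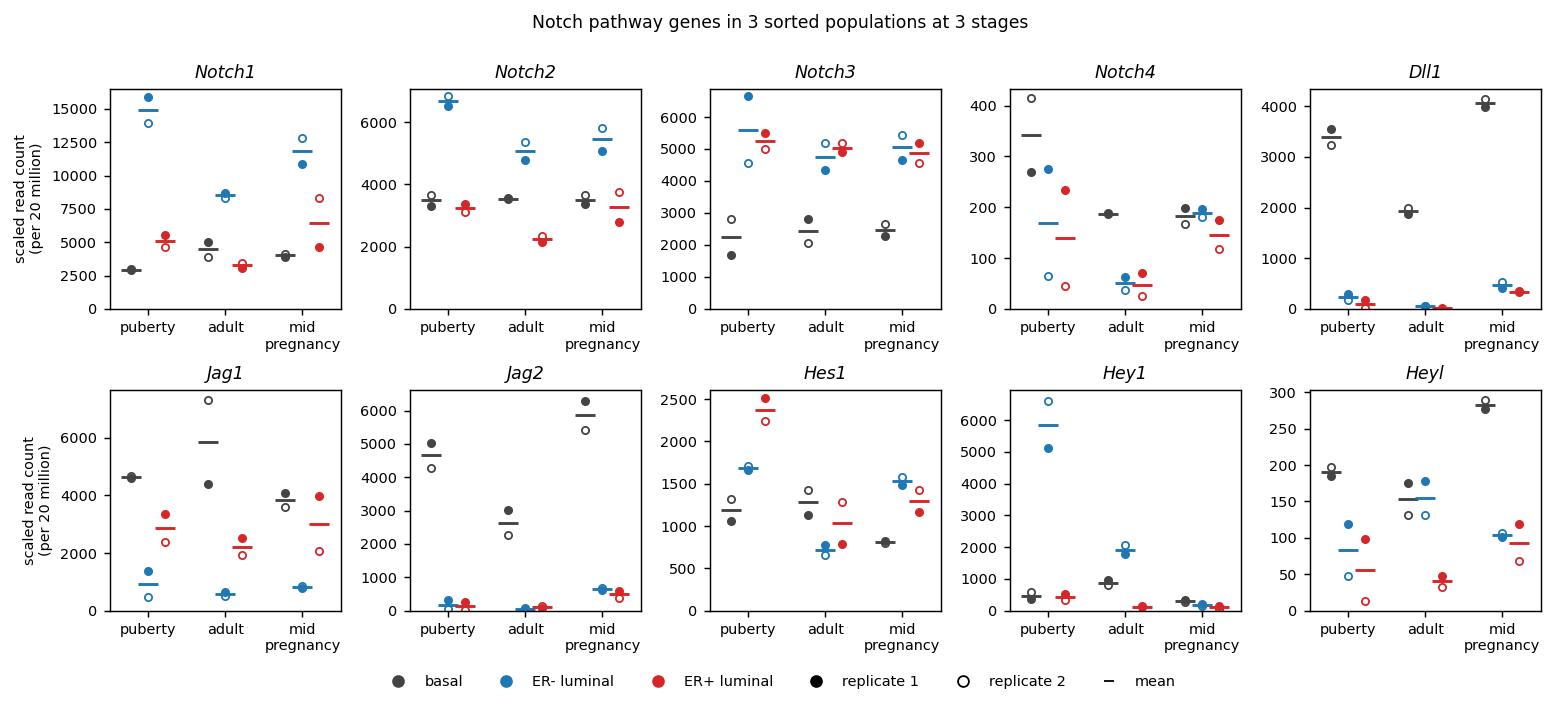
Scaled read counts (on a library total of 20000000) of the 10 members at puberty, adulthood and mid pregnancy. Filled and open points are replicates 1 and 2, bars are means, and colours are the 3 populations. In the Hey1 plot the ER- points start at 5111 and 6613 at puberty and reach 196 and 158 in pregnancy, while the ER- points of Notch1 stay at or above 8301 throughout.

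Hes1 (chromosome 16, 30064384 to 30067796, plus strand), a repressor gene that Notch and other pathways induce, had its highest counts in puberty luminal cells. In ER+ cells they were 2512 and 2240 at puberty, 784 and 1279 in adults and 1164 and 1431 in pregnancy. In ER- cells they were 1660 and 1712, 771 and 652, and 1484 and 1578. In basal cells they were 1061 and 1325, 1131 and 1430, and 824 and 795. Puberty ER+ libraries exceeded all others, and adult ER- libraries were below all others.

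Adult cells had less Hes1 than puberty cells in the ER+ (-1.24 ± 0.21, adjusted p = 0.00237) and ER- populations (-1.25 ± 0.21, adjusted p = 0.00376). With the compared groups alone the ER+ call was lost. In basal cells the change was 0.10 ± 0.21 (adjusted p = 0.824), and the basal minus luminal contrast itself differed between these stages by 1.35 ± 0.26 (adjusted p = 0.00695; 6.59% of genes called), a call lost without puberty basal replicate 1. From adulthood to pregnancy ER- cells gained Hes1, by 1.11 ± 0.21 (adjusted p = 0.00434), a call lost without adult ER- replicate 2. These steps run through the adult luminal libraries, for which stage and batch cannot be told apart. Pregnancy ER+ cells had less Hes1 than puberty ER+ cells (-0.88 ± 0.21, adjusted p = 0.0123), a call lost without puberty ER+ replicate 1 or 2 or pregnancy ER+ replicate 1 (highest adjusted p 0.101). Without pregnancy ER+ replicate 2 it was -1.03 (adjusted p = 0.031).

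Hes1 and Hey1 thus parted in ER- cells, where from puberty to pregnancy the log2 fold change was -0.14 ± 0.21 for Hes1 (adjusted p = 0.723) and -5.04 for Hey1. Over the 3 stages Hes1 was lower in basal than in luminal cells by -0.32 ± 0.11 (adjusted p = 0.0253). Against ER- cells alone the basal value was -0.51 ± 0.21 at puberty (adjusted p = 0.125), and it was lower in pregnancy (-0.92 ± 0.21, adjusted p = 0.00848) and higher in adults (0.84 ± 0.21, adjusted p = 0.014). The pooled call was lost with edgeR (adjusted p = 0.0731), DESeq2, TMM factors or median-ratio factors, and without trend and robust settings. It was also lost without the pregnancy libraries (-0.08) and without puberty basal 1, adult basal 1 or either pregnancy basal library. The calls within pregnancy and within adults were lost without pregnancy basal 1 or 2 or ER- 2, and without adult basal 2 or ER- 2.

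Heyl (chromosome 4, 123233556 to 123249875, plus strand), a Hey family gene with a known place in vascular smooth muscle, was low. Its counts were 185 and 197, 176 and 132, and 277 and 289 in basal cells. In ER- cells they were 119 and 48, 178 and 132, and 101 and 106, and in ER+ cells 98 and 13, 47 and 33, and 119 and 68. Adult basal and adult ER- libraries overlapped fully, and the ER+ group had the lowest mean at each stage. The basal excess over luminal cells was 1.45 ± 0.33 on the log2 scale (adjusted p = 0.0026). All 8 markers of pericytes and vascular smooth muscle were higher in basal cells too, and over the 18 libraries their sum had r of 0.734 and rho of 0.753 with Heyl on the log2 scale. Their part in the Heyl difference was not tested.

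Within single stages, ER+ against ER- cells gave 1 member higher and 3 lower at puberty, where 12.4% of genes were called (5.59% higher, 6.84% lower). The counts were the same in adults, where 17% were called (5.49% higher, 11.5% lower). In pregnancy 2 members were lower, where 1.85% of genes were called (1.64% higher, 0.211% lower). Basal against ER- cells gave 2 higher and 4 lower at puberty, where 17.8% of genes were called (8.82% higher, 8.99% lower). In adults they gave 4 and 4, with 17.4% called (10.8% higher, 6.58% lower), and in pregnancy 1 and 4, with 18.6% called (8.25% higher, 10.3% lower). Notch1, Notch2 and Notch3 were among the lower members at every stage, and their puberty calls held in every alternative and with each library left out. In adults the Notch1 call was lost without basal replicate 2 and that of Notch3 without basal replicate 2 or ER- replicate 2. In pregnancy those of Notch2 and Notch3 were lost without basal replicate 1 or ER- replicate 2, and that of Notch2 also with edgeR, DESeq2, TMM or median-ratio factors. Basal against ER+ cells gave 3 higher and 3 lower at puberty, where 21.3% of genes were called (11.5% higher, 9.76% lower). In adults they gave 7 and 1, with 36.8% called (22.7% higher, 14.1% lower), and in pregnancy 2 and 2, with 13.2% called (6.36% higher, 6.87% lower). Of 9 ER- markers 6 were called higher in adult basal than in adult ER+ cells too, and their part was not tested. Notch3 was lower and Jag2 higher at every stage in basal against ER+ cells. The Jag2 call in pregnancy (3.63 ± 1.01, adjusted p = 0.0399) was lost in 10 of 18 fits that left out 1 library. The Notch3 call in pregnancy (-0.97, adjusted p = 0.00989) was lost without basal replicate 1, without ER+ replicate 1 and without trend and robust settings. In pregnancy 1 of the 4 calls, that of Notch3, was left without ER+ replicate 2. Jag2 was then at 3.33 (adjusted p = 0.173), Hey1 at 1.16 (adjusted p = 0.052; 1.66 and 0.0034 with it) and Hes1 at -0.52 (adjusted p = 0.272; -0.67 and 0.0499 with it).

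Between stages fewer members were called. From puberty to pregnancy Hes1 and Hey1 were lower in ER+ cells, where 13.1% of genes were called (7.34% higher, 5.73% lower). Hey1 was lower in ER- cells, where 14.8% were called (8.78% higher, 6.04% lower), and 0 members were called in basal cells, where 2.07% of genes were (0.668% higher, 1.4% lower). In that basal comparison limma gave 2 members at an unadjusted p under 0.05, Hes1 and Notch1, and edgeR and DESeq2 called 0. From puberty to adulthood Notch2, Hes1 and Hey1 were lower in ER+ cells, where 5.73% of genes were called (1.22% higher, 4.5% lower). The Notch2 call (-0.54 ± 0.15, adjusted p = 0.0456) was lost in 12 of 18 fits that left out 1 library and in 7 of 13 other alternatives. In ER- cells Notch1, Hes1 and Hey1 were lower, where 3.66% were called (1.24% higher, 2.42% lower). Basal cells gave 0 members, where 9.73% of genes were called (5.15% higher, 4.58% lower), with Notch1 and Hey1 at an unadjusted p under 0.05 by limma, 0 calls by edgeR and 1 by DESeq2. These comparisons share groups with one another.

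From adulthood to pregnancy 3 members were higher in ER+ cells, Notch1 (0.94 ± 0.21, adjusted p = 0.00601), Notch2 (0.53 ± 0.15, adjusted p = 0.0222) and Dll1 (6.32 ± 1.35, adjusted p = 0.00969), where 17.9% of genes were called (12.8% higher, 5.05% lower). None of the 3 was called without pregnancy ER+ replicate 2 (0.52, 0.31 and 6.36, adjusted p = 0.1, 0.255 and 0.0595). The Notch2 and Dll1 calls were also lost without adult ER+ replicate 1, and that of Notch2 without adult ER+ replicate 2. In ER+ cells 6 of 9 ER- markers and 7 of 10 basal markers were called higher in the same comparison, and their part was not tested. In ER- cells Hes1 and Jag2 were higher and Hey1 lower, where 14.4% of genes were called (8.89% higher, 5.51% lower), and the Jag2 call (3.45 ± 1.01, adjusted p = 0.0457) was lost in 14 of 18 fits that left out 1 library. Basal cells gave Hey1 alone, lower in pregnancy, where 7.26% of genes were called (2.92% higher, 4.34% lower).

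Notch1 also differed between stages in its basal minus luminal contrast, by 1.31 ± 0.26 from puberty to adulthood (adjusted p = 0.00718). Its log2 change between these stages was 0.59 ± 0.21 in basal (adjusted p = 0.09), -0.80 ± 0.21 in ER- (adjusted p = 0.0442) and -0.63 ± 0.21 in ER+ cells (adjusted p = 0.0946). The ER- call was lost in 12 of 18 fits that left out 1 library. In the same difference of contrasts 8 of 9 ER- markers were called higher, and their part was not tested.

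The rest of the pathway was read from 54 further genes of the pathway, of which 49 were tested. In ER+ against ER- cells 9 were higher and 11 lower, with a median of -0.03, where 25.5% of all genes were called. Lfng, a fucose-modifying glycosyltransferase gene that tunes ligand choice, was higher in ER+ cells (1.89 ± 0.22, adjusted p = 1.55e-05), as was Adam10, a protease of ligand-induced receptor cleavage (1.68 ± 0.14, adjusted p = 1.22e-06). Adam10 counts were 20515 and 25133, 21291 and 21963, and 12536 and 7017 in ER+ cells, and 3325 to 6986 over the 6 ER- libraries. All ER+ libraries were above all ER- libraries, with the pregnancy ER+ library of replicate 2 lowest. Dtx4 (0.86), a Deltex E3 ligase gene, and Aph1b (0.74), a gamma-secretase subunit gene, were also higher.

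Lower in ER+ cells were Hey2, another Hey family gene (-2.61 ± 0.57, adjusted p = 0.00339), the Deltex gene Dtx1 (-2.15 ± 0.35, adjusted p = 0.000299), the Mastermind coactivator gene Maml2 (-1.54 ± 0.11, adjusted p = 2.6e-07) and the ubiquitin ligase gene Neurl1b (-1.25 ± 0.26, adjusted p = 0.00216). Hey2 counts in ER- cells were 259 and 164 at puberty, 62 and 76 in adults and 24 and 46 in pregnancy. The ER- level of Hey2 was thus, like that of Hey1, highest at puberty and lowest in pregnancy, without overlap between stages. In ER+ cells Hey2 was at 84 and 8, 8 and 0, and 32 and 20. Maml2 counts were 1950 to 3372 in ER- cells and 528 to 1657 in ER+ cells, which did not overlap.

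In basal against luminal cells 16 of the 49 were higher and 15 lower, with a median of -0.02, where 42.5% of all genes were called (20.9% higher, 21.5% lower). Dlk2 (4.73 ± 0.55, adjusted p = 4.98e-06) and Dlk1 (2.52 ± 0.64, adjusted p = 0.00472), which encode non-canonical Delta-like proteins, Mfng (2.22 ± 0.75, adjusted p = 0.0288), another glycosyltransferase gene, and the target gene Hes5 (2.21 ± 0.57, adjusted p = 0.0053) led the higher ones. Hes5 did not exceed 11 in any library and was at 0 in 9 of the 12 luminal ones. Lower in basal cells were Adam10 (-0.94), Hes6 (-0.88), Dtx3l (-0.88) and the corepressor gene Tle2 (-0.86).

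From puberty to pregnancy 5 of the 49 rose and 5 fell in ER+ cells, 4 rose and 1 fell in ER- cells and 1 fell in basal cells, where 13.1%, 14.8% and 2.07% of all genes were called. Without pregnancy ER+ replicate 2 the ER+ counts were 3 and 2, where 6.21% of genes were called. Numb, an inhibitor of Notch that acts on receptor trafficking, fell in ER- cells by 2.83 ± 0.29 on the log2 scale (adjusted p = 4.61e-05) and in basal cells by 1.49 ± 0.29 (adjusted p = 0.0161). Its counts in ER- cells were 10359 and 10942 at puberty, 2366 and 4417 in adults and 1397 and 1600 in pregnancy, with no overlap between stages. Lfng rose in ER- cells (1.98 ± 0.39, adjusted p = 0.00364), as did Dtx4 (1.21), Rfng (1.11) and Tle3 (0.42). In ER+ cells Dtx1 (2.98), Neurl1a (2.75), Rfng (0.92) and Tle2 (0.83) rose, and Adam10 (-1.28), Maml3 (-1.10), Aph1b (-1.07) and Pofut1 (-0.84) fell. Among them Rfng (0.73), Aph1b (-0.69) and Pofut1 (-0.72) were not called without pregnancy ER+ replicate 2, with adjusted p = 0.251, 0.268 and 0.0697.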

How the data were processed

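Libraries of sorted mammary cells were prepared with Ovation Solo kits from column-purified RNA, per the labels' protocols. The authors deposited signal values, whole numbers for each gene in each library, in 1 table. Per the submitters' processing notes, STAR, Picard, HTSeq and the build GRCm38 were used. The sources used here give no versions, no settings, no word on strand and none on duplicates. Reads of genes that overlap Notch1, Notch2, Notch3, Notch4, Dll1 or Jag2 on either strand may therefore be mixed with theirs.

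The signal was read as counts brought to a total of 20000000 per library, with fractions raised to the next whole number. Inverting this returned 99.8% to 99.9% of non-zero values exactly, and 1 read was worth 1.75 to 8.25. Only 3 libraries met a stricter test of whole-read steps, so the depths of the others depend on that reading. The table had 46868 rows, 790 of which repeated 179 gene IDs, and 46257 IDs were used. Gene positions and exon lengths are from GENCODE on GRCm38.

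The test was limma 3.58.1 (R 4.3.3; trend and robust) on log2(value + 1), with 1 mean per group, 9 residual degrees of freedom and 26 comparisons, over genes at 10 or more in at least 2 libraries. On this scale fold changes of low genes can be understated, or overstated where a library is near 0. The procedure was tested on simulated data for ER+ against ER- cells over the 3 stages alone, with the same spread for every gene. That run does not cover comparisons within or between single stages, differences of contrasts or members near 0. Alternatives were pseudocounts, filters, scalings, weights, the compared groups alone, a replicate block, libraries left out, and edgeR 4.0.16 and DESeq2 1.42.0 on recovered reads. Named were the 10 members, 3 genes of like pattern for each, and up to 4 called pathway genes per direction in the comparisons over the 3 stages and of pregnancy with puberty. Members and lists were chosen with earlier results of these data known. The deposited values do not show whether reads carried molecular identifiers, and intervals cover counting error alone. Plots and tables were made in Python 3.11.15 using matplotlib 3.10.9, numpy 2.4.6 and pandas 2.3.3.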

Additional observations from a re-analysis of the deposited data

Results flagged for a closer look

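The 7 results here stood out because a population difference itself changed between stages, tested by an interaction term in limma (values are log2, ± SE). For Hey1 there were 4. Its ER+ minus ER- contrast differed between pregnancy and puberty by 2.8828 ± 0.46 (adjusted p = 0.00413) and between pregnancy and adulthood by 3.0332 ± 0.46 (adjusted p = 0.00313), where 2.07% of genes were called in the latter. Without pregnancy ER+ replicate 2 these were 3.38 (adjusted p = 0.00162) and 3.53 (adjusted p = 0.00139). In these differences the ER- markers had medians of 3.11 and 2.88, with 1 and 2 of 9 called, and their part was not tested. The basal minus luminal contrast of Hey1 differed between pregnancy and puberty by 2.9353 ± 0.40 (adjusted p = 0.00494, with 0.744% of genes called). Between adulthood and puberty it differed by 2.58 ± 0.40 (adjusted p = 0.00179). The first of these basal results was lost without pregnancy basal replicate 1 (adjusted p = 0.0528).

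Hes1 had a basal minus luminal contrast that differed by -1.3886 ± 0.26 between pregnancy and adulthood (adjusted p = 0.0061, with 6.18% of genes called) and by 1.3469 ± 0.26 between adulthood and puberty (adjusted p = 0.00695). For Notch1 that contrast differed by 1.3057 ± 0.26 between adulthood and puberty (adjusted p = 0.00718). In that same difference between adulthood and puberty, which Hey1, Hes1 and Notch1 share, 8 of 9 ER- markers were called higher (median 3.14, with 6.59% of genes called). Their sums in basal libraries were 52640 and 29455 in adults and 6388 and 11705 at puberty, and in ER- libraries 114829 and 111718 against 202257 and 248881. Their part was not tested. The 4 results that involve adulthood for basal minus luminal cells, and that of Hey1 for pregnancy and adulthood, rest on the 4 adult luminal libraries that stand apart. The ER+ minus ER- contrast between adulthood and puberty gave 0 members by limma, 0 at an unadjusted p under 0.05 and 0 by edgeR or DESeq2, where 0.0717% of genes were called.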

How the results depend on the processing

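Of 83 called results of single members, 42 stayed called in every alternative and with every library left out, 53 stayed called in every alternative other than a left-out library, and 0 changed direction. Of the reversals below, all concern members that were not called. For ER+ against ER- cells, Notch3 went to 0.0119 with quantile normalization, 0.0496 with TMM factors, 0.0206 with median-ratio factors, 0.0468 with edgeR, 0.0120 with DESeq2 and 0.0076 without the pregnancy libraries. With 1 library left out Notch3 ran from -0.1024 to 0.0772 and Notch4 from -0.7246 to 0.0683. Jag2 went to 0.1256 with quantile normalization, 0.0720 with edgeR, 0.0199 with DESeq2 and 0.0542 without the pregnancy libraries, and ran from -0.6841 to 0.4439 with 1 library left out. For basal against luminal cells, Hey1 went to -0.2720 without the adult libraries, -0.4496 without the pregnancy libraries and ran from -0.0001 to 0.1978 with 1 library left out.

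Counts of called members moved as follows. With the compared groups alone, which leaves fewer samples, pregnancy against adult gave 1 in ER+ (3 in all groups), 5 in ER- (3) and 3 in basal cells (1), adult against puberty 0 in ER+ (3) and 1 in basal cells (0), pregnancy against puberty 2 in ER- (1) and 1 in basal cells (0), basal against ER- cells 5 in adults (8) and 9 in pregnancy (5), and the difference of basal minus luminal cells between pregnancy and adulthood 2 (1). With array weights the counts were 1 for pregnancy against puberty and 2 for pregnancy against adult in basal cells, 4 for basal against ER- and 5 for basal against ER+ cells in adults, and 1 for ER+ against ER- cells in pregnancy. Without trend and robust settings they were 5 for basal against ER+ cells in adults and, in pregnancy, 2 for basal against ER+ and 0 for ER+ against ER- cells. No filter on low values also gave 2 for basal against ER+ cells in pregnancy. Quantile normalization gave 2 for pregnancy against adult and 1 for adult against puberty in basal cells. edgeR gave 1 for ER+ against ER- cells in pregnancy. DESeq2 gave 2 for pregnancy against puberty in ER- cells, 1 for adult against puberty in basal cells, 8 for basal against ER- cells in pregnancy and 2 for the difference of basal minus luminal cells between pregnancy and adulthood. The cause of these shifts was not tested.

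With single libraries left out, the counts ran from 4 to 6 for ER+ against ER- cells over the 3 stages (3 to 5 at puberty, 3 to 6 in adults, 0 to 3 in pregnancy) and from 7 to 9 for basal against luminal cells. They ran from 6 to 8, 2 to 9 and 1 to 7 for basal against ER- cells and from 3 to 6, 5 to 9 and 0 to 5 for basal against ER+ cells at the 3 stages. For pregnancy against puberty they ran from 1 to 4 in ER+ and 1 to 2 in ER- cells, with 0 to 0 in basal cells. For pregnancy against adult they ran from 0 to 4, 1 to 4 and 0 to 2, and for adult against puberty from 1 to 4, 1 to 3 and 0 to 1, in ER+, ER- and basal cells. For differences of contrasts they ran from 1 to 2 (ER+ minus ER-, pregnancy and puberty), 2 to 3 (basal minus luminal, adulthood and puberty), 1 to 2 (pregnancy and adulthood) and 0 to 1 (pregnancy and puberty).

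Of 36 pairs of groups 1 had same-numbered deviations correlated over 0.1, in a range of -0.088 to 0.269. Low genes weigh in these correlations, so they cannot settle whether same-numbered libraries were paired. At puberty the endothelial sums of replicates 1 and 2 were 11084 and 2382 in ER- and 12770 and 2928 in ER+ cells. The fibroblast sums were 14974 and 66398, and 18408 and 61712. In puberty basal cells the endothelial sums went the other way, at 10985 and 17568. Pairing was not tested further. With a replicate block, 5 members were called for ER+ against ER- and 9 for basal against luminal cells, and no count moved by over 1.5 times. Scaling moved the median of all genes, for pregnancy against adult ER+ cells from 0.205 to -0.109 and for basal against ER+ adult cells from 0.205 to -0.208 with quantile normalization. Groups of 2 libraries, and 12 reads or fewer behind adult ER+ values of Dll1, Heyl and Notch4, limit what can be told of low members.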

Other observations

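For each member the genes of most similar pattern were sought over the 9 group means of log2(value + 1), among 10924 genes. The likeness is Pearson's r, a description over groups that share stage, population and depth. Ranks by Spearman's rho differed for some of the genes named. Tmem79 ranked 194 for Notch3 (rho = 0.8), Dysf and Pcsk5 72 for Dll1, and Ero1l 64 for Notch2. Others ranked 1 by rho as well, such as Cnn1 for Jag2, Dse for Dll1 and Cfap43 for Hey1. The ligand Jag2 lay closest to Cnn1 (r = 0.996), a contractile protein gene of the basal layer, Mrvi1 (0.995) and Snai2 (0.994), a basal transcription factor gene. Dll1 lay closest to Dysf (0.992), a membrane repair gene, Pcsk5 (0.991), a proprotein convertase gene, and Dse (0.989). Jag1 was less closely matched, with Vav3 (0.965), Fam162a (0.963) and Cntln (0.957) first.

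Notch4 lay closest to the endothelial genes Gpihbp1 (0.987) and Cdh5 (0.976), the latter on the endothelial marker list, and to Hexim1 (0.975). Among receptors, Notch1 was nearest to Tyro3 (0.979), a receptor tyrosine kinase gene, Magi3 (0.969) and Npas2 (0.965). Notch2 was nearest to Nek1 (0.978), Anpep (0.976) and Ero1l (0.964), and Notch3 to Tmem79 (0.991), Sema4d (0.985), a semaphorin gene, and Plekha6 (0.983). Hey1 was nearest to Cfap43 (0.987), Rftn1 (0.983) and Ankrd42 (0.977). For Hes1 the nearest were Tiprl (0.962), Dnajb6 (0.959) and Usp47 (0.946), and for Heyl Arhgef4 (0.972), Smim13 (0.97) and Fbxl22 (0.967).

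The canonical ligand gene Dll4 and the feedback target Nrarp, which are no members, were low. Dll4 was at 96 to 295 in basal, 32 to 277 in ER- and 19 to 172 in ER+ libraries, and Nrarp did not exceed 38 in any library. These 2 genes were chosen after their values were seen. Rbpj, the transcription factor gene of the pathway, also chosen so, was within 613 to 1449 in all 18 libraries.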
